A study of Mus spretus with 12 samples.

Results

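The B cell and plasma cell marker genes described here are Jchain, Mzb1, Ms4a1, Cd79a, Cd79b, Cd22 and Pou2af1, measured in liver RNA of aged mice. They were taken from the array by gene name, with every probe that carries one of these names, which gave 7 of 37074 gene names and 11 of 56605 probes. Livers of male Mus spretus of the inbred strain SPRET/EiJ were measured, 22 months old per the labels, in 3 groups of 4 arrays. The PXDDE group received Teklad diet with 450 mg/kg p,p'-DDE dissolved in corn oil for 60 days and, as drinking water, Pedro Ximenez must (85 mg/L total polyphenols and 31 g/L glucose and fructose). The DDE group received the same diet without must, and the control group received Teklad diet with corn oil. p,p'-DDE is a persistent breakdown product of the insecticide DDT, and must is unfermented grape juice. The series title frames the study as a test of whether the must protects the aged liver from p,p'-DDE. The design text names 4 mice for the must group and 4 for the control group. Nothing in the sources used here says whether RNA was pooled, so the p-values measure the spread between arrays, part of which may be technical, and 4 arrays a group limit the precision.

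B cells carry a membrane-bound antibody, the B cell receptor, whose signal passes through the paired chains encoded by Cd79a and Cd79b. Ms4a1 encodes CD20, a membrane protein of B cells that is lost when they become plasma cells, and Cd22 encodes an inhibitory coreceptor that binds sialic acid. Pou2af1 encodes a coactivator of octamer-binding transcription factors at antibody gene promoters. Mzb1 encodes a chaperone-associated protein of the endoplasmic reticulum that is abundant in plasma cells and in marginal zone B cells. Jchain encodes the joining chain that links antibody units in IgA and IgM polymers and is made mainly by antibody-secreting cells. Liver holds few B cells among its hepatocytes, and gut-derived IgA reaches the bile through it.

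What a probe reports depends on its letters, and the probes of Cd22 and Ms4a1 disagree, so stretches of the probes behind the results are printed here from the deposited files. They run 5′ to 3′, and capitals, where present, mark an AACC tandem repeat. The first 30 bases are given for most probes, the whole 60 bases for 3 of them, and bases 3 to 32 for the repeat-bearing Cd22 probe. The probe of Mzb1 is not printed.
Jchain probe A_51_P150710: ctgtactagtctttctcttaacctctcact
Ms4a1 probe A_55_P2802151: cagaaatgtaatgggttcccagatctcaaa
Ms4a1 probe A_66_P120649: ccgctatgcctggagaggatggggaggtgg
Cd79b probe A_51_P342652: agagacttgttggaatctgcaaatggactc
Cd79a probe A_66_P120987: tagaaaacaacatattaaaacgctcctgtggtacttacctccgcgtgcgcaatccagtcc
Cd22 probe A_55_P2163795: agggcctgctgtgttttttcatctacttta
Cd22 probe A_52_P466268: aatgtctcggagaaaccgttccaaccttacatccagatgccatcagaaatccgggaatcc
Cd22 probe A_51_P448140: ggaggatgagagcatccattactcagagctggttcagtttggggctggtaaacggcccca
Cd22 probe A_55_P2016004: aaaatgaaaAACCAACCAACCAACCaaaca
Pou2af1 probe A_51_P183581: gtcttggctgcaggcatccaaacagatttc

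The files place these probes on the mouse build mm9. The Jchain probe lies at chr5:88949919-88949978, minus strand, and the Cd79b probe at chr11:106172780-106172839, minus strand. The Pou2af1 probe lies at chr9:51048108-51048167, plus strand. The Ms4a1 probes lie on the minus strand at chr19:11325409-11325468 (A_55_P2802151) and chr19:11324334-11324393 (A_66_P120649). The Cd79a probe is given as chr7:25684357-25684614, plus strand, a span longer than the probe itself. The 4 Cd22 probes lie on the minus strand of chromosome 7. In transcript order they are chr7:31665113-31665172 (A_55_P2163795), chr7:31661143-31662467 (A_52_P466268), chr7:31651590-31651649 (A_51_P448140) and chr7:31651249-31651308 (A_55_P2016004). Whether a probe lies in a coding exon or in a UTR was not looked up here, and mismatches between these laboratory mouse probes and Mus spretus were not checked.

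Levels below are log2 of the scanner's processed signal relative to the 75th percentile of the same array, so 0 is the signal of that percentile. A level says nothing about one gene against another, because probes differ in brightness. A probe entered the test if some group had it well above background on each of its 4 arrays, and each gene was represented by its brightest such probe. That left 6 of the 7 genes, all 6 of them well above background on all 12 arrays. Cd79a, the partner of Cd79b, was not tested: its only probe was well above background on 0 of 4 PXDDE, 2 of 4 DDE and 0 of 4 control arrays. Fold changes and adjusted p-values come from limma's moderated test over 18678 genes with Benjamini-Hochberg adjustment, and called means an adjusted p below 0.05. The 3 comparisons share arrays, so their results are not independent of each other.

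The 11 measured hepatocyte genes averaged a log2 level of 8.41 to 8.46 on PXDDE arrays, 8.46 to 8.57 on DDE arrays and 8.57 to 8.67 on control arrays. These levels were far above the 75th percentile of each array, and they do not by themselves identify the tissue. Between 50.1% and 52% of spots were well above background, no spot was saturated, and the 75th percentile signal ran from 492 to 710 units. Called genes were very common: 50.3% of all genes in DDE against control, 49.9% in PXDDE against DDE and 70.9% in PXDDE against control. Counts of called genes are to be read against these shares, split by direction where they are given below. Markers of other tissues also differed strongly between the groups, among them skeletal muscle, stratified epithelium, pancreatic acinar and adrenal cortex genes, with values given further below.

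DDE livers had lower levels of Jchain, Mzb1, Ms4a1 and Cd79b than control livers, while Cd22 and Pou2af1 did not pass the test. Of the 6 tested genes 4 were called lower and 0 higher, where 26.3% of all genes were called lower. The genes lower by at least 2-fold were Jchain, Ms4a1 and Mzb1, 3 of the 6, where 3.04% of all genes were called lower by that much. The calls held under other background corrections, but the 2-fold mark did not: after the RMA-like treatment the log2 change was -0.93 for Ms4a1 and -0.60 for Mzb1. Groups did not overlap for 5 of the 6, against 46.4% of all genes. The median log2 change of the 6 genes was -1.02, beside -0.0239 over all genes. PXDDE livers were lower still for part of the set. Against DDE livers 3 of the 6, Jchain, Mzb1 and Cd22, were called lower and 0 higher, beside 29.7% of all genes called lower. Among the 3, Jchain alone was lower by at least 2-fold (2.29% of all genes). Groups did not overlap for 3 of the 6 (44.7% of all genes). The Mzb1 call was lost under some other scalings, and Cd22 rests on its repeat-bearing probe, as given below. The median log2 change was -0.215, beside -0.0402 over all genes. Against control livers, PXDDE livers had 5 of the 6 called lower and 0 higher, beside 39.3% of all genes called lower. Of these, 3 were lower by at least 2-fold (9.42% of all genes), 5 of the 6 did not overlap (65.2% of all genes), and the median was -1.2 beside -0.0577. In whole liver RNA, fewer B lineage cells and less of these RNAs per cell cannot be told apart.

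**Figure D1:**
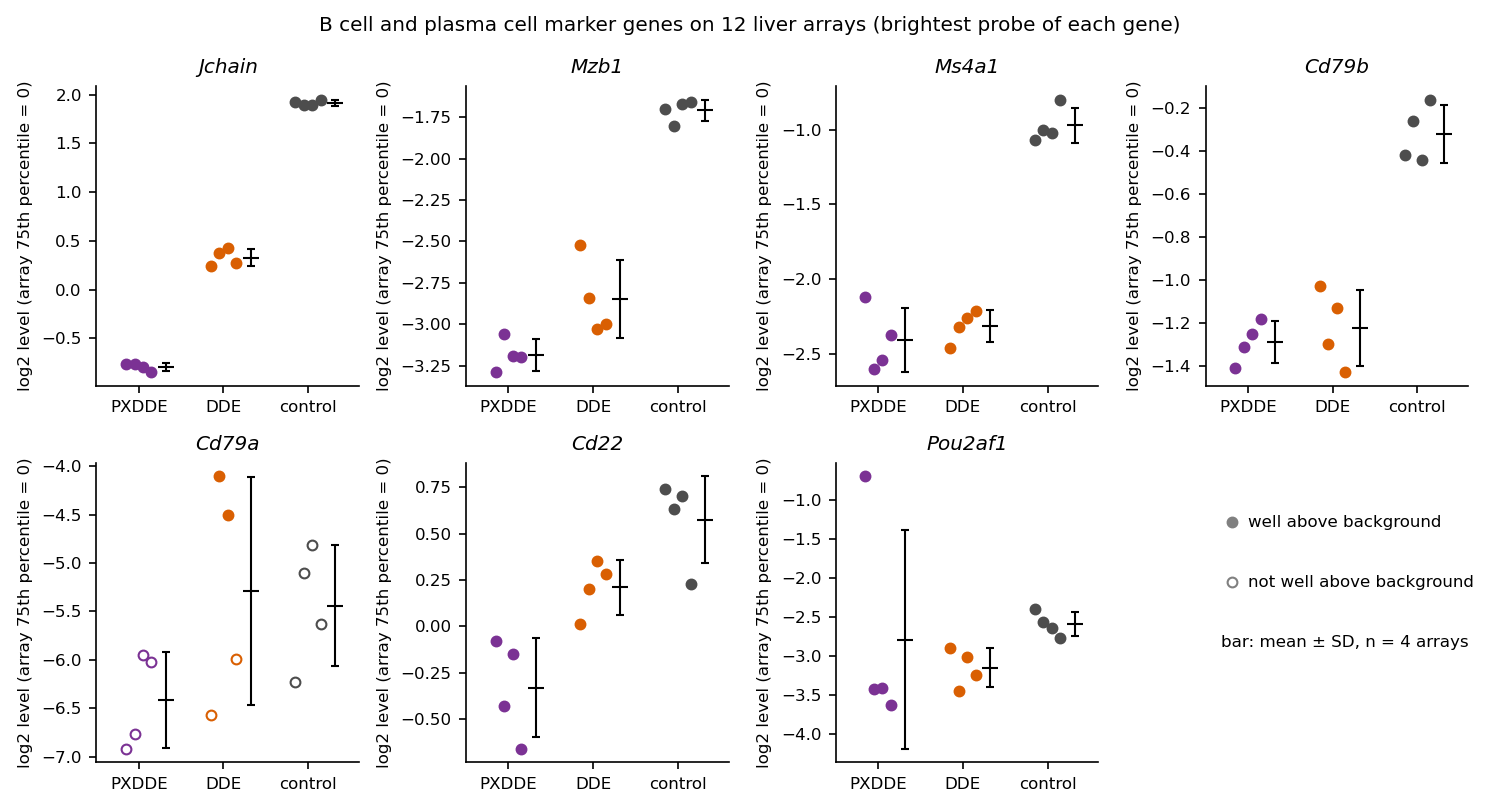
Level of each gene on each array (log2, array 75th percentile = 0), with PXDDE, DDE and control arrays from left to right, filled points well above background, hollow points not, and bars giving mean ± SD of 4 arrays. Jchain separates the 3 groups, Ms4a1 and Cd79b separate only the control group from the other two, and Pou2af1 has 1 PXDDE array at -0.70.

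Jchain, the joining chain gene, changed most among the 6. Its log2 level was -0.76, -0.77, -0.80 and -0.85 on PXDDE arrays, 0.24, 0.37, 0.43 and 0.27 on DDE arrays, and 1.93, 1.89, 1.89 and 1.95 on control arrays. All 3 groups stood apart with no overlap, and the widest gap within a group was far smaller than any gap between groups. Jchain averaged 0.33 ± 0.09 in DDE livers and 1.92 ± 0.031 in control livers (SD, n = 4 each), a log2 change of -1.59 (SE 0.049), 3.01-fold lower, with adjusted p = 5.99e-10 by limma. PXDDE livers averaged -0.79 ± 0.042, a further log2 change of -1.12 (SE 0.049) against DDE livers, 2.18-fold lower (limma, adjusted p = 1.25e-08). Against control livers PXDDE livers were 6.54-fold lower, a log2 change of -2.71 (SE 0.049; limma, adjusted p = 4.72e-12). Arrays shared 5 slides, and the Jchain change within the slides that held both groups was -1.66 to -1.46 for DDE against control, -1.23 to -1.09 for PXDDE against DDE and -2.72 to -2.65 for PXDDE against control.

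Mzb1, the second gene of antibody-secreting cells, followed the same order of groups with a smaller last step. Its log2 level was -3.29, -3.06, -3.19 and -3.20 on PXDDE arrays, -2.52, -2.84, -3.03 and -3.0 on DDE arrays, and -1.70, -1.80, -1.67 and -1.66 on control arrays. The control arrays stood well above the others, while the lowest DDE array was close to the highest PXDDE array. DDE livers were 2.2-fold lower than control livers, a log2 change of -1.14 (SE 0.1; limma, adjusted p = 4.08e-06), and PXDDE livers 2.78-fold lower than control livers (log2 -1.47, SE 0.1; limma, adjusted p = 1.42e-07). That last change was -0.99 after normexp background correction and -0.73 after the RMA-like treatment, both still called. Mzb1 was 1.26-fold lower in PXDDE than in DDE livers, a log2 change of -0.34 (SE 0.1; limma, adjusted p = 0.0161). That call was lost when the arrays were scaled in another way, with an adjusted p of 0.101 after quantile normalisation, 0.068 after an RMA-like treatment and 0.151 after median centring.

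Ms4a1, which encodes CD20, was lower in both treated groups than in control livers. On its brighter probe the log2 level was -2.12, -2.60, -2.54 and -2.37 on PXDDE arrays, -2.46, -2.32, -2.26 and -2.21 on DDE arrays, and -1.07, -1.0, -1.02 and -0.80 on control arrays. The PXDDE and DDE arrays overlapped, and all 8 lay below every control array. Ms4a1 fell 2.53-fold in DDE livers against control livers, a log2 change of -1.34 (SE 0.1; limma, adjusted p = 1.33e-06), and 2.71-fold in PXDDE livers against control livers (log2 -1.44, SE 0.1; limma, adjusted p = 2.09e-07). Between PXDDE and DDE livers the log2 difference was -0.095 with a 95% interval of -0.32 to 0.13 (limma, adjusted p = 0.467). The second Ms4a1 probe was dim, well above background on 1 of 4 PXDDE, 3 of 4 DDE and 3 of 4 control arrays, and was not tested. Its mean log2 level was -5.00 on PXDDE arrays, -4.33 on DDE arrays and -3.89 on control arrays.

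Cd79b, a signalling chain of the B cell receptor, was also lower in both treated groups than in control livers. Its log2 level was -1.41, -1.31, -1.25 and -1.18 on PXDDE arrays, -1.03, -1.30, -1.13 and -1.43 on DDE arrays, and -0.42, -0.26, -0.44 and -0.16 on control arrays. PXDDE and DDE arrays overlapped and all lay below the control arrays. DDE livers were 1.87-fold lower than control livers (log2 -0.90, SE 0.094; limma, adjusted p = 1.43e-05) and PXDDE livers 1.95-fold lower than control livers (log2 -0.97, SE 0.094; limma, adjusted p = 2.54e-06). Between PXDDE and DDE livers the log2 difference was -0.063 with a 95% interval of -0.27 to 0.14 (limma, adjusted p = 0.604). The partner gene Cd79a gave log2 levels of -6.92 to -5.95 on PXDDE arrays, -6.57 to -4.10 on DDE arrays and -6.23 to -4.81 on control arrays, where most arrays were not well above background, so no fold is given.

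Within the slides that held both groups, the change from DDE against control stayed between -1.30 and -1.17 for Mzb1, -1.30 and -1.14 for Ms4a1, and -1.02 and -0.87 for Cd79b. With the slide as a term in the fit, 5 of the 6 genes were called lower in DDE against control livers, 3 in PXDDE against DDE livers and 5 in PXDDE against control livers. The fit without that term called 26.3%, 29.7% and 39.3% of all genes lower in these comparisons.

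**Figure D2:**
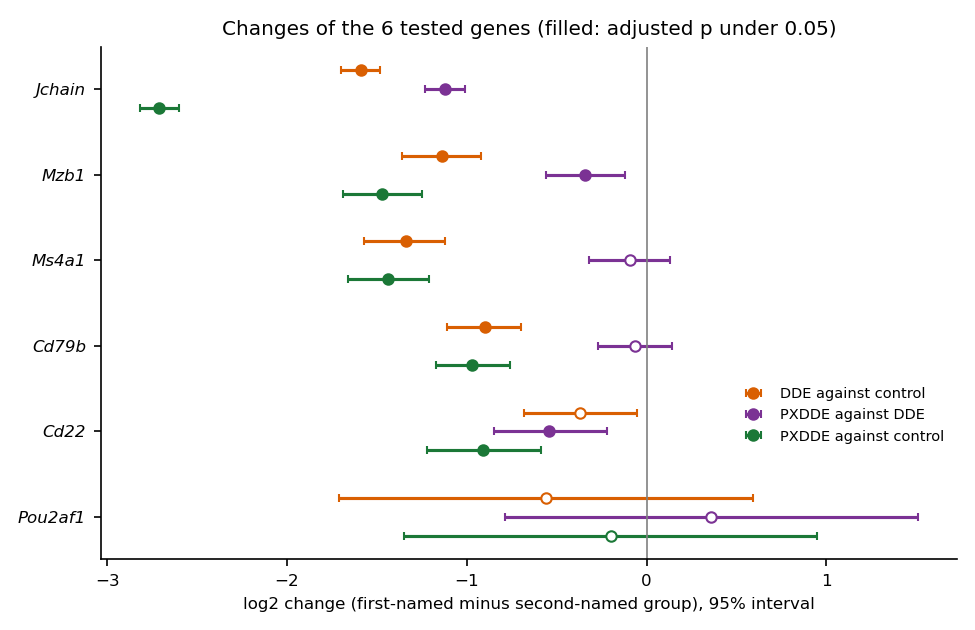
Log2 change of the 6 tested genes with its 95% interval, for DDE against control (orange), PXDDE against DDE (purple) and PXDDE against control (green), with filled points called. Jchain has a change in each comparison that no interval carries across 0, whereas Ms4a1 and Cd79b lie near 0 between PXDDE and DDE.

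The separation of Jchain and of Mzb1 from the surface genes Ms4a1 and Cd79b was tested within arrays. The difference of log2 levels on each array was compared between groups. Of 12 such tests, 7 reached an exact two-sided permutation p of 0.0286, the smallest that 4 against 4 arrays allow, with a Benjamini-Hochberg value of 0.049 over the 12. The Jchain minus Ms4a1 difference averaged 1.62 ± 0.213 on PXDDE arrays and 2.64 ± 0.103 on DDE arrays (SD, n = 4 each), so Jchain fell by 1.03 more than Ms4a1 on the log2 scale (exact permutation p = 0.0286). The Jchain minus Cd79b difference averaged 0.49 ± 0.134 on PXDDE arrays and 1.55 ± 0.2 on DDE arrays, a change of -1.06 (exact permutation p = 0.0286). Between DDE and control arrays the same 2 differences changed by -0.25 and -0.68 (exact permutation p = 0.0286 each), and between PXDDE and control arrays by -1.27 and -1.74 (exact permutation p = 0.0286 each). Mzb1 did not separate from Ms4a1 in any comparison, with exact permutation p = 0.343 for DDE against control, 0.4 for PXDDE against DDE and 0.857 for PXDDE against control. From Cd79b it separated between PXDDE and control arrays, with a change of -0.51 (exact permutation p = 0.0286), and not between the other groups, with p = 0.114 for DDE against control and 0.0857 for PXDDE against DDE. These gene pairs were picked with the levels known, and they left out Cd22, which was called lower in PXDDE than in DDE livers.

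Cd22, the sialic acid-binding inhibitory coreceptor, was read by 4 probes that did not report alike. The probe nearest the end of the transcript, A_55_P2016004, gave log2 levels of -0.08, -0.43, -0.15 and -0.66 on PXDDE arrays, 0.01, 0.20, 0.35 and 0.28 on DDE arrays, and 0.74, 0.63, 0.70 and 0.23 on control arrays. PXDDE arrays lay below all DDE arrays, and the lowest control array lay among the DDE arrays. By this probe Cd22 was 1.45-fold lower in PXDDE than in DDE livers (log2 -0.54, SE 0.14; limma, adjusted p = 0.00864) and 1.87-fold lower than in control livers (log2 -0.91, SE 0.14; limma, adjusted p = 0.000139). DDE against control was -0.37 (SE 0.14) and missed the threshold (limma, adjusted p = 0.0516). It passed in 12 of 25 alternative treatments of the data with a test, over which the adjusted p ran from 0.00727, with the slide as a term, to 0.409, after median centring.

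The other 3 Cd22 probes were dim. A_51_P448140, the next upstream, was well above background on 2 of 4 PXDDE, 3 of 4 DDE and 3 of 4 control arrays, with mean log2 levels of -4.65 on PXDDE, -4.17 on DDE and -3.93 on control arrays. A_52_P466268 and A_55_P2163795 were well above background on 0 arrays. The bright probe is also the one with the AACC repeat in capitals above, which occurs in at least 3 tandem copies on the probe strand of 6 of 56605 probes, or 0.0106%, and on either strand of 9, or 0.0159%. Another of those 6, the probe A_55_P2731896 of Dennd4a, was close to the Cd22 probe on nearly every array. The Dennd4a probe gave 0.01, -0.30, -0.20 and -0.30 on PXDDE arrays, 0.05, 0.25, 0.31 and 0.34 on DDE arrays, and 0.71, 0.55, 0.62 and 0.59 on control arrays. The 2 Dennd4a probes without the repeat that were well above background on all 12 arrays ran in the other order, with mean levels of 0.10, -0.31 and -0.44 for one probe (A_51_P468240) and -0.34, -0.51 and -0.64 for the other (A_55_P2843354) on PXDDE, DDE and control arrays. A further Dennd4a probe without the repeat, A_55_P2048650, well above background on 11 arrays, ran in the order of the Cd22 probe, with means of 6.73 on PXDDE, 7.19 on DDE and 7.22 on control arrays. Of the remaining 4 probes with the repeat on the same strand, that of Gm8479 averaged 2.62 on PXDDE, 2.81 on DDE and 2.94 on control arrays, and those of Gm5434, Tspan18 and Zfp169 were well above background on at most 1 array. The repeat and these probes were looked up after the Cd22 values were seen, and what RNA the Cd22 probe binds was not tested. Every statement about Cd22 here rests on that probe.

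**Figure D3:**
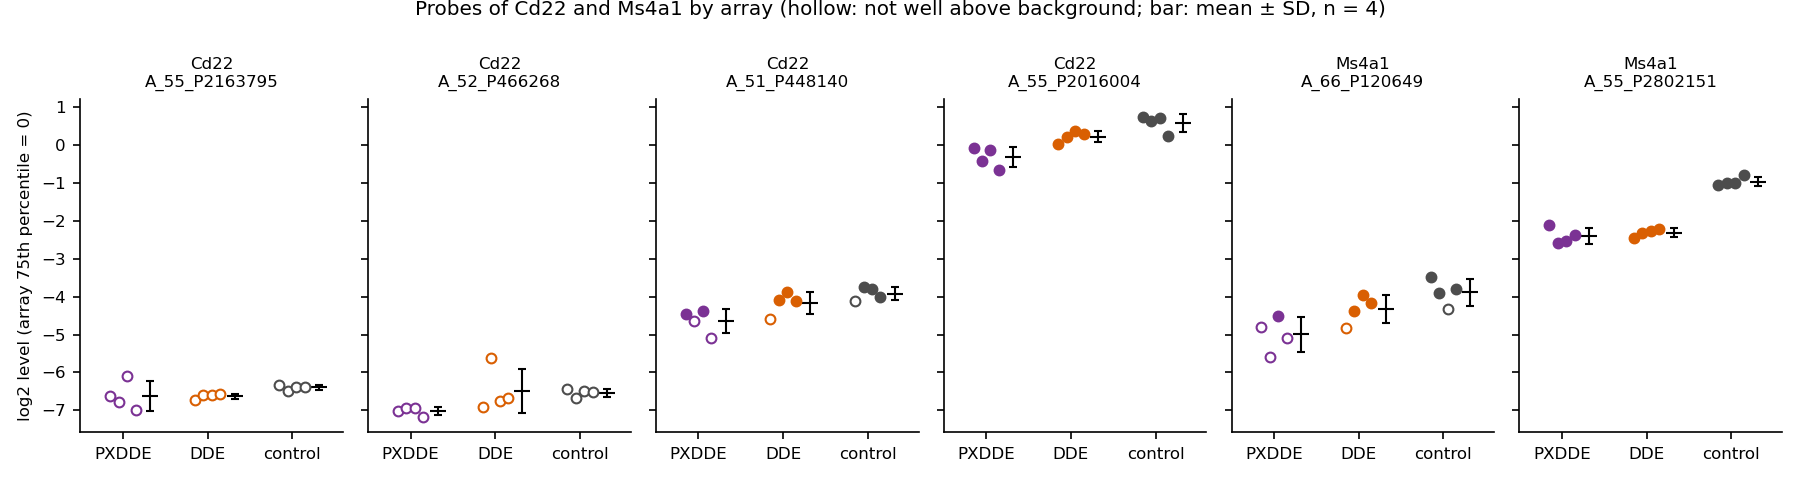
Levels (log2, array 75th percentile = 0) of the 4 Cd22 probes, in transcript order, and the 2 Ms4a1 probes on PXDDE, DDE and control arrays, with hollow points not well above background and bars giving mean ± SD of 4 arrays. Of the Cd22 probes, A_55_P2016004 alone is well above background on all 12 arrays.

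Pou2af1, the coactivator gene, turned on 1 array. Its log2 level was -0.70, -3.43, -3.41 and -3.63 on PXDDE arrays, -2.90, -3.45, -3.01 and -3.25 on DDE arrays, and -2.40, -2.57, -2.64 and -2.77 on control arrays. PXDDE replicate 1 stood above every other array, its spot was not marked as an outlier by the scanner software, and the DDE and control arrays did not overlap. Over all arrays no comparison was called: the log2 change was -0.56 (SE 0.52; limma, adjusted p = 0.4) for DDE against control, 0.36 (adjusted p = 0.598) for PXDDE against DDE and -0.20 (adjusted p = 0.749) for PXDDE against control. Without PXDDE replicate 1, Pou2af1 was lower in DDE than in control livers by the same -0.56 (limma, adjusted p = 0.00355) and lower in PXDDE than in control livers by -0.90 (limma, adjusted p = 0.000135), while PXDDE against DDE was -0.34 (limma, adjusted p = 0.0552). With that array left out, 6, 3 and 6 of the 6 genes were called lower in DDE against control, PXDDE against DDE and PXDDE against control. The fit with all 12 arrays called 26.3%, 29.7% and 39.3% of all genes lower in these comparisons. On the same array Jchain was at -0.76, Ms4a1 at -2.12 and Cd22 at -0.08, each the highest of its group, whereas Mzb1 at -3.29 and Cd79b at -1.41 were the lowest.

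Antibody genes themselves were read from probes that the files describe as immunoglobulin heavy, kappa or lambda, a set formed after the files were read. Of 232 such probes 70 were tested, and 120 were well above background on no array. Over all 27098 tested probes, 24.5%, 27.1% and 37.2% were called lower in DDE against control, PXDDE against DDE and PXDDE against control. A probe that passed only through its bright group had to differ, so the 37 probes well above background on all 12 arrays are counted here. Of these, 35 were lower and 0 higher in DDE than in control livers, where 24.6% of all probes well above background on all 12 arrays were called lower. The 2 not called were immunoglobulin heavy variable V1-11 and kappa variable 8-19. In PXDDE against DDE livers 29 were lower and 4 higher (28.4% of all such probes lower), and against control livers 35 were lower and 1, kappa variable 8-19, higher (37.4%). The median log2 changes were -1.2, -0.87 and -2.24 for DDE against control, PXDDE against DDE and PXDDE against control, against all-probe medians of -0.00372, -0.0329 and -0.031. Probes of related antibody genes can share sequence, and cross-hybridisation was not checked.

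The constant regions, which set the antibody class, are given class by class. The 15 tested constant-region probes covered gamma, alpha, delta and mu heavy chains and kappa and lambda light chains. Gamma 2C, read at chr12:114525496-114525555, gave log2 levels of -1.39, -1.35, -1.36 and -1.22 on PXDDE arrays, 0.04, 0.04, 0.14 and -0.02 on DDE arrays, and 2.61, 2.65, 2.57 and 2.58 on control arrays. It was 5.88-fold lower in DDE than in control livers (log2 -2.56, SE 0.051; limma over 27098 probes, adjusted p = 2.9e-11) and a further 2.6-fold lower in PXDDE than in DDE livers (log2 -1.38, SE 0.051; limma, adjusted p = 3.95e-09). Gamma 2B, at chr12:114544738-114544797, was 6.14-fold lower in DDE than in control livers (log2 -2.62; limma, adjusted p = 2.49e-10) and 3.27-fold lower in PXDDE than in DDE livers (log2 -1.71; limma, adjusted p = 7.35e-09). That made gamma 2B 20.1-fold lower in PXDDE than in control livers, with mean levels of -3.65 ± 0.089 and 0.68 ± 0.074 (SD, n = 4 each). The size depended on the background correction: that log2 change of gamma 2B was -4.33 as measured here, -3.22 after normexp correction and -3.06 after the RMA-like treatment, and for PXDDE against DDE it was -1.71, -1.06 and -0.90.

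Alpha, the heavy chain of IgA, was 3.13-fold lower in DDE than in control livers (log2 -1.65; limma, adjusted p = 7.34e-09) and 1.76-fold lower in PXDDE than in DDE livers (log2 -0.81; limma, adjusted p = 2.8e-06). Its level was 1.32 to 1.42 on PXDDE arrays, 2.09 to 2.33 on DDE arrays and 3.74 to 3.98 on control arrays, so the groups did not overlap. Gamma 1 was well above background on 0 of 4 PXDDE and 0 of 4 DDE arrays. With the background correction used here, that puts it at least 3.61-fold and at least 3.01-fold below control livers there. These bounds set the control mean against the dimmer group's mean of, per array, the higher of the probe's own level and the lowest level of any probe well above background. By the same bound the gamma 3 probe A_55_P2118876, well above background on 0 of 4 PXDDE arrays, was at least 7.21-fold lower in PXDDE than in control livers. Both probes entered the test through the control arrays, so no p is given for them. The bounds hold only for the background correction used here, and other corrections gave smaller changes than the bounds. In PXDDE against control livers the gamma 3 change was log2 -1.64 after normexp correction and -1.32 after the RMA-like treatment. The gamma 1 change was -1.08 and -0.73 there, and -0.82 and -0.71 in DDE against control livers. A second gamma 3 probe, named Ighg3 in the files, was well above background on all 12 arrays, with mean levels of -3.82 in PXDDE, -3.32 in DDE and -0.91 in control livers. Ighg3 was 5.31-fold lower in DDE than in control livers (limma, adjusted p = 5.89e-10) and 1.41-fold lower in PXDDE than in DDE livers (limma, adjusted p = 0.000215). Light chains were lower too in DDE than in control livers. The kappa constant probe A_55_P2727321 was 2.22-fold lower (log2 -1.15, limma, adjusted p = 1.52e-07) and the kappa constant probe A_55_P2060897 2.43-fold lower (log2 -1.28, limma, adjusted p = 5.14e-07). The brighter lambda constant 3 probe was 2.3-fold lower (log2 -1.20, limma, adjusted p = 7.35e-09).

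Mu and delta, the heavy chains of IgM and IgD that B cells carry before they switch class, had their bright probes called lower in DDE against control livers, and none of these called lower in PXDDE against DDE livers. The brightest mu probe, A_55_P2745508, gave log2 levels of 3.90, 3.84, 3.84 and 3.88 on PXDDE arrays, 3.81, 3.73, 3.73 and 3.69 on DDE arrays, and 4.36, 4.33, 4.29 and 4.30 on control arrays. It was 1.5-fold lower in DDE than in control livers (log2 -0.58, SE 0.041; limma, adjusted p = 9.44e-07) and 1.09-fold higher in PXDDE than in DDE livers (log2 0.12, SE 0.041; limma, adjusted p = 0.0315). All 3 mu probes were called higher in PXDDE than in DDE livers, the other two by log2 0.38 (limma, adjusted p = 0.00123) and 0.22 (limma, adjusted p = 0.0135), and all 3 were also called higher under normexp correction, quantile, RMA-like and median scaling and in the deposited values. Against control livers the mu changes depended on the scaling. In PXDDE livers A_55_P2745508 was lower by -0.46 (limma, adjusted p = 1.66e-06) and A_55_P2745692 by -0.51 (limma, adjusted p = 2.02e-05). After median centring these changes were -0.08 (limma, adjusted p = 0.145) and -0.13 (limma, adjusted p = 0.118). The mu probe A_51_P485421 was lower in DDE than in control livers by -0.41 (limma, adjusted p = 0.000708), which median centring turned into -0.18 (limma, adjusted p = 0.0602). In PXDDE livers it differed by -0.03 from control livers (limma, adjusted p = 0.71), and by 0.34 after median centring (limma, adjusted p = 0.00146). The delta probe A_55_P2734227 was 2.47-fold lower in DDE than in control livers (log2 -1.31; limma, adjusted p = 1.24e-07) and differed by -0.12 between PXDDE and DDE livers, with a 95% interval of -0.28 to 0.042 (limma, adjusted p = 0.21). After normexp background correction that delta difference was -0.16 and called (limma, adjusted p = 0.015), and after quantile normalisation it was 0.01 (limma, adjusted p = 0.952).

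**Figure D4:**
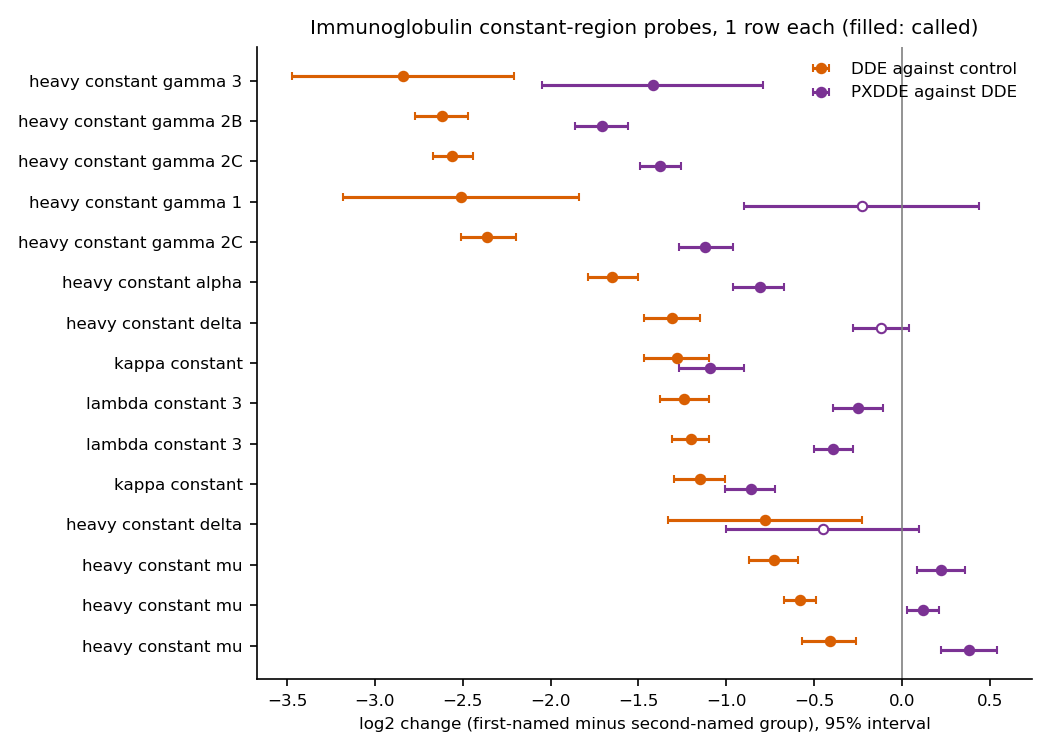
Log2 change with 95% interval of the 15 tested immunoglobulin constant-region probes for DDE against control (orange) and PXDDE against DDE (purple), with filled points called. The 3 mu probes lie at the right of 0 for PXDDE against DDE, at 0.12 to 0.38, while gamma 2B is at -1.71. The gamma 1 probe and the gamma 3 probe A_55_P2118876 are at background in PXDDE livers. In DDE livers they were well above background on 0 and 1 of 4 arrays. Both entered the test through the control arrays, so their changes in either comparison are not sizes and their filled points are not read as results. The delta probe A_51_P266248, at -0.78 in DDE against control, also entered only through the control arrays. It was well above background on 1 of 4 DDE and 2 of 4 PXDDE arrays, and its filled point is not read as a result either.

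Other genes of the B cell pathway were taken from 9 lists, with 107 genes tested of 148 listed. In DDE against control livers 44 were called lower and 22 higher, where 26.3% of all genes were lower and 24% higher. In PXDDE against DDE livers 43 were lower and 14 higher (29.7% and 20.2% of all genes), and in PXDDE against control livers 63 lower and 22 higher (39.3% and 31.6%). Over the 99 of these genes well above background on all 12 arrays the counts were 40 lower and 22 higher, 40 lower and 14 higher, and 58 lower and 22 higher. Median log2 changes of the 107 were -0.169, -0.149 and -0.407 in the same order of comparisons.

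Among receptors and coreceptors, 4 of 7 tested genes were lower and 1 higher in DDE than in control livers (26.3% and 24% of all genes). Cd72, an inhibitory coreceptor, was 2.03-fold lower in DDE than in control livers (limma, adjusted p = 0.00221), and Cd5, shared with T cells and B-1 cells, 1.75-fold lower (limma, adjusted p = 4.45e-05). In PXDDE against DDE livers 4 of the 7 were lower and 1 higher (29.7% and 20.2% of all genes). Cd72 was among the lower, by log2 -0.67 (limma, adjusted p = 0.0235). The higher one was Cd5, by 0.34 (limma, adjusted p = 0.0127). The gene called higher in DDE than in control livers was Cd81, a tetraspanin that hepatocytes also express, by log2 0.51 (limma, adjusted p = 4.09e-06). Siglecg, of the same family as Cd22, was too dim to test.

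Among 16 tested signalling genes downstream of the receptor, 8 were lower and 3 higher in DDE than in control livers (26.3% and 24% of all genes), and 8 lower and 1 higher in PXDDE than in DDE livers (29.7% and 20.2% of all genes). Plcg2, the phospholipase that the receptor activates, fell at both steps: it averaged 2.67 in PXDDE livers, 3.63 in DDE livers and 4.57 in control livers. Its log2 change was -0.94 for DDE against control (limma, adjusted p = 5.38e-09) and -0.96 for PXDDE against DDE (limma, adjusted p = 4.27e-09). Blnk, the adaptor that recruits it, was lower by -0.40 in PXDDE than in DDE livers (limma, adjusted p = 0.000547). Pik3ap1, an adaptor of phosphoinositide 3-kinase, was higher by 0.72 in DDE than in control livers (limma, adjusted p = 0.000227). Several of these genes are used by myeloid cells too, and Blk, a kinase more restricted to B cells, was too dim to test.

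Of 14 tested B cell transcription factors, 7 were lower and 1 higher in DDE than in control livers (26.3% and 24% of all genes). In PXDDE against DDE livers 4 were lower and 3 higher, close to the 29.7% and 20.2% of all genes. Ikzf3, a lymphoid zinc finger factor, fell 1.83-fold in DDE against control livers (limma, adjusted p = 0.000452) and 1.82-fold in PXDDE against DDE livers (limma, adjusted p = 0.000481). Pax5, the factor that holds B cell identity, was 1.41-fold lower in DDE than in control livers with overlapping arrays (limma, adjusted p = 0.0457). Id3 was higher by 0.86 in PXDDE than in DDE livers (limma, adjusted p = 2.57e-08). Ebf1, Pou2f2, which is a binding partner of the Pou2af1 product, and Spi1 were too dim to test.

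Of 26 other mature B cell markers, 14 were lower and 2 higher in DDE than in control livers (26.3% and 24% of all genes), and 12 lower and 0 higher in PXDDE than in DDE livers (29.7% and 20.2% of all genes). Ccr6, a chemokine receptor, was 1.91-fold lower in DDE than in control livers (limma, adjusted p = 2.43e-05), and Cd83, an activation marker, 1.5-fold lower (limma, adjusted p = 0.00016). Cd52, a small surface protein of lymphocytes and other leukocytes, fell by 0.48 in DDE against control livers (limma, adjusted p = 1.7e-05) and by 0.78 in PXDDE against DDE livers (limma, adjusted p = 3.67e-07). The class II gene H2-Eb1, which macrophages and dendritic cells share, fell by 0.42 in DDE against control livers (limma, adjusted p = 1.19e-05).

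Most calls in the list of plasma cell genes were in the other direction from Jchain and Mzb1. Of 18 tested, 10 were higher and 1 lower in DDE than in control livers (24% and 26.3% of all genes), and 7 higher and 4 lower in PXDDE than in DDE livers (20.2% and 29.7% of all genes). Of the genes named here, Derl3, Pdia4 and Creld2 serve folding and export in the endoplasmic reticulum, which hepatocytes use as well. Derl3 was higher by 0.54 in DDE than in control livers (limma, adjusted p = 0.000315), Pdia4, a protein disulphide isomerase, by 0.47 (limma, adjusted p = 0.000226), and Creld2 by 0.26 (limma, adjusted p = 0.000563). Sdc1, the plasma cell surface marker CD138 that hepatocytes express too, was higher by 0.27 (limma, adjusted p = 0.000463). The genes more restricted to plasma cells, Prdm1, Irf4, Tnfrsf17 and Slamf7, were too dim to test, as was Fkbp11.

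**Figure D5:**
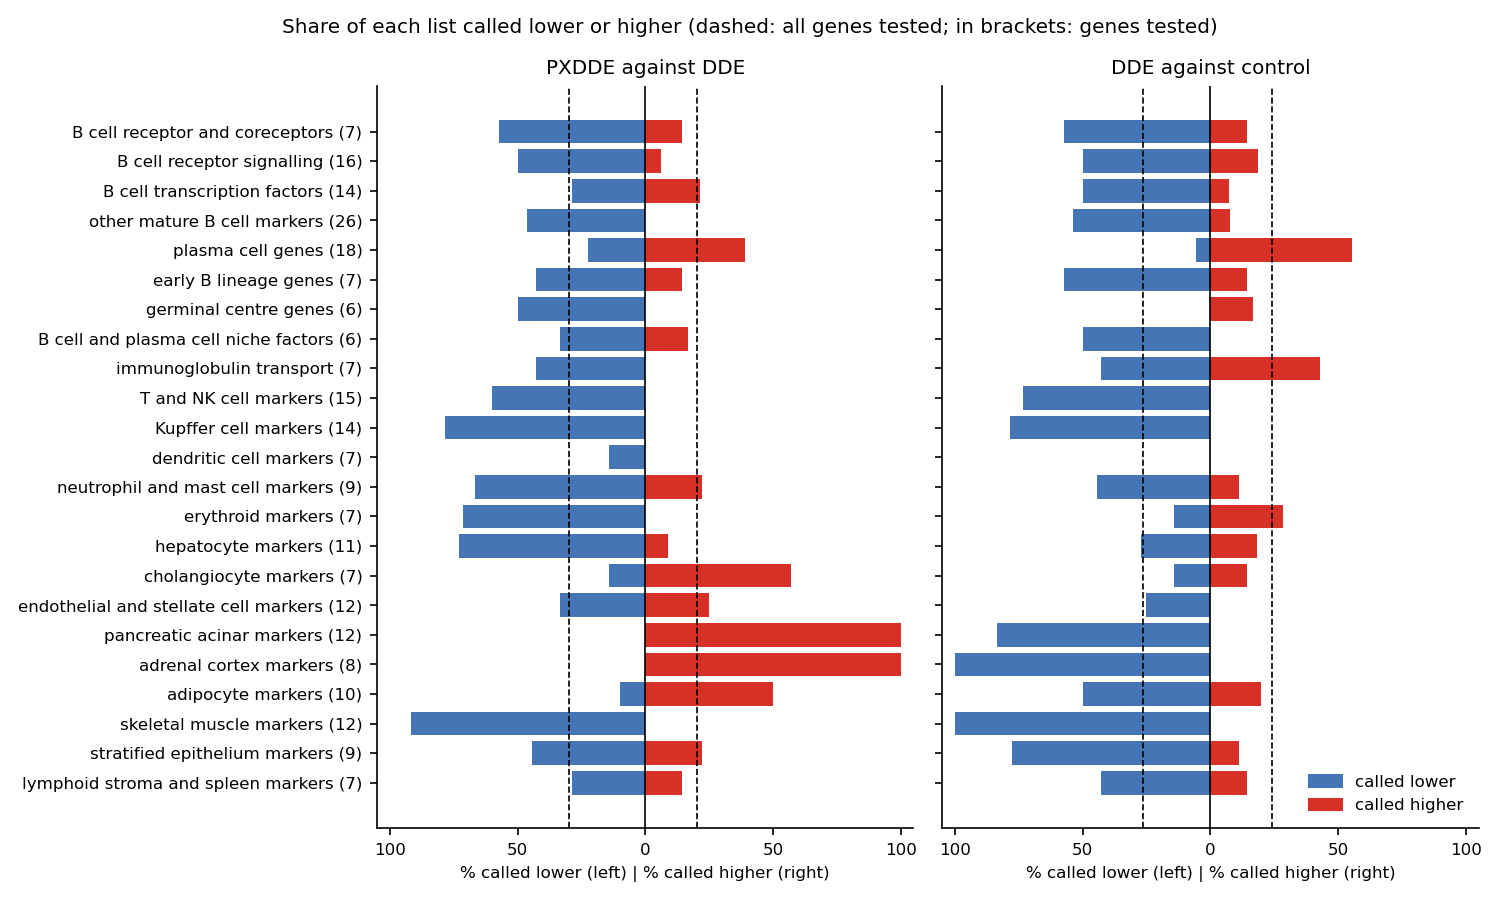
Share of the tested genes of each list called lower (blue, to the left) and higher (red, to the right) in PXDDE against DDE and in DDE against control livers, with dashed lines at the shares over all genes and the number tested in brackets. T and NK, Kupffer and skeletal muscle markers have no gene called higher in either comparison, and plasma cell genes lie mostly to the right.

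Markers of several other cell types were lower where these genes were lower, and others were not. Of all genes, 26.3% were lower in DDE than in control livers, 29.7% in PXDDE than in DDE livers and 39.3% in PXDDE than in control livers. None of 15 tested T and NK cell markers was higher, and 11 were lower in DDE than in control livers, 9 in PXDDE than in DDE livers and 14 in PXDDE than in control livers; Cd3g, Cd8a and Cd8b1 were too dim to test. Their mean log2 level was -1.96 to -1.85 on PXDDE arrays, -1.58 to -1.40 on DDE arrays and -0.92 to -0.81 on control arrays. Kupffer cell markers were lower for 11 of 14 in DDE against control livers, 11 of 14 in PXDDE against DDE livers and 13 of 14 in PXDDE against control livers, with mean levels of 0.90 to 0.99 on PXDDE arrays, 1.31 to 1.34 on DDE arrays and 1.62 to 1.65 on control arrays. Skeletal muscle markers were lower for 12 of 12, 11 of 12 and 12 of 12, with mean levels of 2.32 to 2.43 on PXDDE arrays, 2.72 to 2.91 on DDE arrays and 4.05 to 4.11 on control arrays. Stratified epithelium markers averaged -2.97 to -2.82 on PXDDE arrays, -2.91 to -2.68 on DDE arrays and -1.19 to -1.02 on control arrays, with 7 of 9 lower in DDE than in control livers. Pancreatic acinar markers were at 6.98 to 7.0 on PXDDE arrays, 4.46 to 4.62 on DDE arrays and 4.81 to 4.90 on control arrays, and adrenal cortex markers at 1.5 to 1.6 on PXDDE arrays, -2.31 to -2.22 on DDE arrays and 0.87 to 0.99 on control arrays. Dendritic cell markers were called for 0 of 7 in DDE against control livers and were lower for 1 and higher for 0 in PXDDE against DDE livers. Erythroid markers were higher for 2 and lower for 1 of 7 in DDE against control livers and lower for 5 in PXDDE against DDE livers. Neutrophil and mast cell markers were lower for 4 and higher for 1 of 9 in DDE against control livers, and lower for 6 and higher for 2 in PXDDE against DDE livers, S100a8 by 5.77-fold (limma, adjusted p = 2.78e-11). Stromal and spleen-associated genes of lymphoid tissue were lower for 3 and higher for 1 of 7 in DDE against control livers, with Madcam1, Nkx2-3 and Tlx1 too dim to test. The part of these other cells and tissues in the changes of the B cell and plasma cell genes was not tested.

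The genes whose levels ran most like the B cell and plasma cell markers included genes of skeletal muscle and epithelium. Likeness is Pearson's r with the mean level of the markers over the same 12 arrays, given as a description, and it takes in the group differences and the depth that arrays share. With all 6 tested genes in the mean the closest were Snhg10 (r = 0.99), Car13 (0.987), Ntng1 (0.983) and Cpne7 (0.983). Without Pou2af1 in the mean, whose 1 high array weighs on it, the closest were Pgam2 (0.999), Tnnc2 (0.998), Ada (0.998), Eno3 (0.998), Lor (0.997), Txlnb (0.997), Cox6a2 (0.997) and Dnah2 (0.997). Pgam2, Tnnc2, Eno3 and Cox6a2 are genes of skeletal muscle metabolism or contraction, and Lor encodes loricrin of stratified epithelium. Tnnc2 was 2.76-fold lower in DDE than in control livers (limma, adjusted p = 2.57e-10), and Lor 5.82-fold lower (limma, adjusted p = 5.27e-10). After the group means were subtracted, the closest genes without Pou2af1 were Pla2g4a (0.904), Msrb1 (0.873), Oxct1 (0.862) and Gab2 (0.858), and with it they included Cycs (0.918), Trim30d (0.904) and H2-Oa (0.896).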

How the data were processed

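Each of 12 liver samples was hybridised to a one-colour (Cy3) Agilent array, per the labels. Per the file headers, the deposited processed signal is an intensity corrected by spatial and multiplicative detrending. RMA, limma and version 11.5.1.1 of Agilent Feature Extraction appear in the submitters' processing notes, with no role given. The authors also deposited log2 values, a scale inferred from a correlation of 0.9949 to 0.9964 with the log2 processed signal; their centring is not stated, and they served as an alternative.

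The log2 processed signal was centred on each array's 75th percentile over 59305 spots that are not controls, without 102 to 177 outlier spots per array. Of 56605 probes 27098 passed the background filter, and the brightest per gene represented 18678 genes. limma 3.58.1 (R 4.3.3, data.table version 1.17.8) was fitted to the 12 arrays with a mean per group and no other term (9 residual degrees of freedom), then eBayes was applied. A second fit covered the 27098 probes. The genes and lists were chosen with earlier results of these data known. Genes named are the 7 members with every probe, up to 4 genes per list and comparison with the smallest p, dim defining markers, and the genes most like the members (8 or the first 4 of them). Pax5, Pigr, Fcgr4, Gm8479, Dennd4a and the other repeat-bearing probes were named after their values were seen. Some genes that the rule names are not reported here. Rbpj and Rbpjl were left out of the immunoglobulin probes after their values were seen. The fit was tested on simulated data. Alternatives covered background correction, scaling, filters, slides and left-out arrays.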

Additional observations from a re-analysis of the deposited data

Results flagged for a closer look

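In 33 groups of 4 arrays (11 probes in 3 groups), 2 had an extreme array whose gap to the nearest other, divided by the group's range, passed the critical value of 0.829; chance flags about 1 group in 20. Pou2af1 stood at a log2 level of -0.70 on PXDDE replicate 1, with the other 3 PXDDE arrays at -3.63 to -3.41. The Cd22 probe A_55_P2163795 stood at -6.73 on DDE replicate 1, with the other DDE arrays at -6.60 to -6.58, on a probe that was well above background on 0 arrays.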

How the results depend on the processing

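No change of the 6 genes reversed while called under any alternative. Among values of single genes under alternatives, 15 became called and 3 lost their call. Within-slide values have no test, and 13 of them moved by more than the spread between replicates. The other 473 values kept their call or, where taken within a slide, stayed within that spread. Replicate numbers did not pair the samples: the deviations of same-numbered arrays correlated between -0.368 and 0.132. With the replicate block, 5, 3 and 5 of the 6 genes were called lower in DDE against control, PXDDE against DDE and PXDDE against control. The fit without the block called 26.3%, 29.7% and 39.3% of all genes lower. Cd22 in DDE against control passed with the block (limma, adjusted p = 0.0427). Leaving out 1 array at a time gave 4 to 6, 3 to 3 and 5 to 6 genes called lower, 0 called higher, 8488 to 9448, 8209 to 9389 and 12614 to 13527 genes called of all tested, and 62 to 67, 48 to 52 and 68 to 70 immunoglobulin probes called lower. Without the filter on dim probes 14103 and 21803 genes were called in PXDDE against DDE and PXDDE against control, where 9320 and 13242 were called with it. Immunoglobulin probes called lower numbered 66, 49 and 68 of 70 with the filter (24.5%, 27.1% and 37.2% of all tested probes). Without the filter they numbered 125, 97 and 165 of 232, with no share over all probes given. With the stricter filter they numbered 35, 29 and 35 of 37 (24.6%, 28.4% and 37.4% of all such probes). The 70 include probes that passed only through their bright group. Counts over the 70 and with 1 array left out are therefore not read as results. Why the counts differ between filters was not tested. Median centring moved the median of all genes to 0.207, 0.103 and 0.317 and the share of called genes that were lower to 18.7%, 33.7% and 26.9%, beside 52.3%, 59.4% and 55.5%; quantile normalisation gave 47.8% in PXDDE against DDE. Dim probes limit what can be said of Cd79a and of 3 of the 4 Cd22 probes.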

Other observations

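Genes that carry or bind antibodies did not move as one. Of 7 tested, 3 were lower and 3 higher in DDE than in control livers (26.3% and 24% of all genes). The receptors Fcgr1, Fcgr3 and Fcgr4, which bind IgG on myeloid cells, were lower in DDE than in control livers by log2 -0.52, -0.36 and -0.69 (limma, adjusted p = 8.4e-05, 0.000103 and 0.000147) and lower again in PXDDE than in DDE livers by -0.64, -0.91 and -0.60 (limma, adjusted p = 1.8e-05, 7.64e-08 and 0.000378). Fcgrt, the neonatal receptor that recycles IgG, was higher by 0.48 in DDE than in control livers (limma, adjusted p = 4.13e-05). Pigr, which carries polymeric IgA into bile, differed by -0.068 between DDE and control livers (limma, adjusted p = 0.809) and by -0.22 between PXDDE and DDE livers (limma, adjusted p = 0.411).

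Among factors of the B cell niche, Ccl21a and Ccl19, chemokines that draw lymphocytes, were lower in DDE than in control livers by -0.83 and -0.62 (limma, adjusted p = 1.4e-07 and 8.87e-06), with 3 of 6 tested genes lower and 0 higher (26.3% and 24% of all genes). Cxcl13, Il6, Il5, Il10 and Cd40lg were too dim to test. Of 6 tested germinal centre genes, 1 was higher and 0 lower in DDE than in control livers (24% and 26.3% of all genes), S1pr2 by 0.82 (limma, adjusted p = 6.05e-06), and Gcsam, Mef2b and Rgs13 were too dim to test. Early B lineage genes were lower for 4 of 7 and higher for 1 in DDE against control livers (26.3% and 24% of all genes), with Il7r, which T cells share, at -0.73 (limma, adjusted p = 1.87e-05), and Rag1 and Rag2 too dim to test.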
